A study of Mus musculus with 6 samples.

Results

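Cx3cr1-positive macrophages with low Mrc1 were examined in orthotopic pancreatic tumours of mice by single-cell RNA sequencing. They were chosen by measured values: barcodes with at least 500 UMIs (unique molecular identifiers, the count of captured RNA molecules), over 200 genes and under 10% mitochondrial UMIs were kept as cells, and cells with C1qa, C1qb and C1qc together at 0.2% of UMIs or more, S100a8 and S100a9 together under 1%, no Cd3e UMI and at most 1 UMI of Mki67 and Top2a together were taken as C1q macrophages. Of these, the cells with no Arg1 UMI, at most 1 UMI of Mrc1 and F13a1 together and at least 1 Cx3cr1 UMI were the Cx3cr1+ Mrc1-low macrophages, called members here. There were 453 members among 10010 C1q macrophages (4.53%) and 74546 cells (0.608%). The 12 genes of this rule describe the members and were not tested.

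CX3CR1 is the receptor of fractalkine, a chemokine that exists as a membrane-bound adhesion molecule and as a form shed by the proteases ADAM10 and ADAM17. In mice the receptor is carried by patrolling monocytes, by microglia and by many tissue macrophages, and it is widely used as a marker of the mononuclear phagocyte lineage. MRC1 (CD206) is a mannose receptor of perivascular and alternatively activated macrophages, F13A1 is a transglutaminase of the same kind of cell, and ARG1 degrades arginine and marks a suppressive state of tumour macrophages. C1q, made largely by macrophages, starts the classical complement pathway.

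The tumours grew from mouse KPC cells, a pancreatic cancer model, which here held either a control vector (KPC-OE-Vector) or one for overexpression of MLKL (KPC-OE-MLKL), the membrane-rupturing executor of necroptosis. The hosts were C57BL/6 mice, 6 to 8 weeks old, and their tumours were taken 4 weeks after injection and digested with collagenase and DNase. The vectors were in the injected cancer cells, so the macrophages came from hosts without them. Matrices of OE-Vector 1 and of OE-MLKL 1, 2 and 3 were used, and OE-Vector 2 and 3 were not analysed here. One library was made per tumour. Between OE-MLKL and OE-Vector, p-values measure the spread between these libraries, with the lone OE-Vector library assumed to vary like the other 3. Between sets of macrophages, a library term takes up the level of each library. Those p-values measure how the set differences vary over the libraries.

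The 4 libraries held 150591289 to 169978362 UMIs in all barcodes and 15382 to 23063 cells each. Mlkl did not separate the labels: it lay at 13.7 CPM (UMIs of a gene scaled to the same total in every library) over all cells of OE-Vector 1 and at 8.09, 12.1 and 15.8 CPM in the libraries labelled OE-MLKL 1, 2 and 3, and in keratin-positive cells at 16.5 against 8.77, 13 and 20.1 CPM. Whether the vector's transcript carries the end of the RNA that these libraries count is not given in the sources used here, so these levels do not settle the labels. Members held 8 Mlkl UMIs in OE-Vector 1 and 3, 3 and 7 in the libraries labelled OE-MLKL. Pairs of libraries shared 73 to 134 cell barcodes, and 9 members (1.99%) carried a shared barcode, none of them a member in both libraries of a pair. A doublet score marked 88 members, between 17.7% and 26.7% per library, against 13% to 17.8% of all C1q macrophages, and these cells were kept.

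Members were unevenly spread over the tumours. OE-Vector 1 held 87 members, 4.75% of its C1q macrophages (95% exact binomial interval 3.82 to 5.83%). The library labelled OE-MLKL 1 held 50 (1.82%, 1.36 to 2.4%), OE-MLKL 2 held 45 (1.77%, 1.29 to 2.36%) and OE-MLKL 3 held 271 (9.37%, 8.33 to 10.5%). The intervals cover counting error only. OE-Vector 1 thus lay inside the range of the other 3 libraries, OE-MLKL 1 and 2 were alike within counting error, and OE-MLKL 3 supplied most of the members. The mean share in the libraries labelled OE-MLKL was 4.32 ± 4.37% (SD, n = 3), which was 0.428 points under OE-Vector 1 (difference -0.428, two-sided exact permutation test p = 1.0, with 0.25 the smallest p that 1 against 3 libraries allows). Without OE-MLKL 1 or OE-MLKL 2 the difference turned to 0.822 and 0.848 points, and without OE-MLKL 3 it was -2.95 points. As a share of all cells the direction was the opposite, with 0.566% in OE-Vector 1 and 0.668 ± 0.754% (SD, n = 3) under the OE-MLKL label (difference 0.102 points, exact permutation test p = 1.0). In cells with 1000 to 5000 UMIs, a restriction chosen for the share after seeing the data, members were 0.405% of cells in OE-Vector 1 and 0.595 to 0.891% in the other 3 libraries (difference 0.371 points, exact permutation test p = 0.25, the smallest possible). Under the same restriction the share of C1q macrophages ran the other way, at 10.4% in OE-Vector 1 and 2.09 to 15.9% in the other 3 (difference -3.66 points, exact permutation test p = 1.0).

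**Figure D1:**
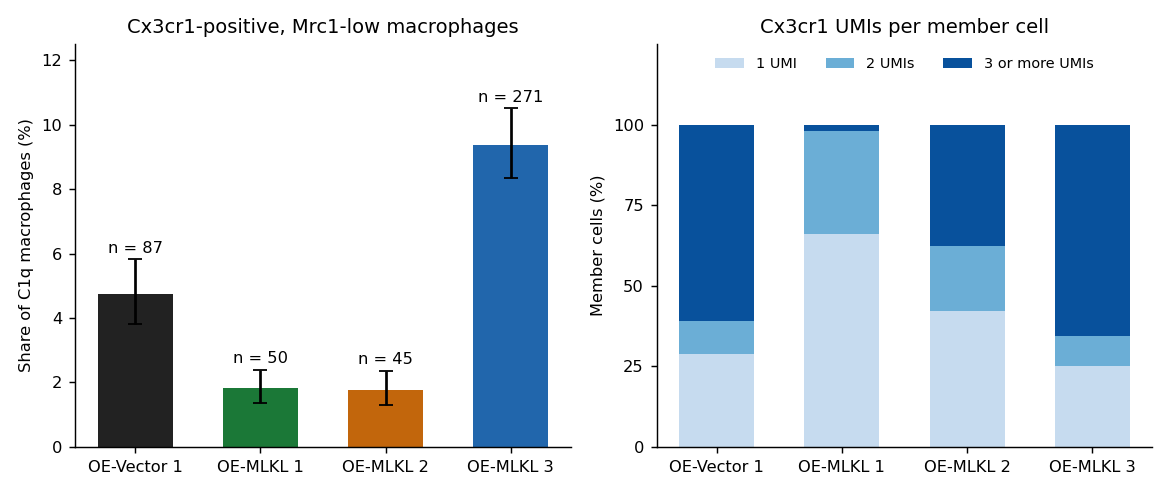
Left, Cx3cr1+ Mrc1-low macrophages as a share of C1q macrophages (%) in each library, with exact 95% binomial intervals as error bars and the number of members above each bar. Right, percentage of members with 1, 2 or at least 3 Cx3cr1 UMIs. OE-MLKL 3 had the highest share (9.37%), and in OE-MLKL 1 only 2.0% of members had 3 Cx3cr1 UMIs or more.

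The members were cut by thresholds on low counts and are a range of the C1q macrophages. Whether they form a separate population was not tested. Exactly 1 Cx3cr1 UMI was found in 25 of 87 members of OE-Vector 1 (28.7%), 33 of 50 of OE-MLKL 1 (66.0%), 19 of 45 of OE-MLKL 2 (42.2%) and 68 of 271 of OE-MLKL 3 (25.1%), and the highest count in a cell was 24, 3, 9 and 19. A further 906 cells that met every other criterion had no Cx3cr1 UMI and were left outside. Mrc1 and F13a1 together were at 0 in 238 members and at 1 in 215, while 227 otherwise matching cells had 2 and were left out. One Arg1 UMI left out 169 more cells. The C1q share lay between 0.2 and 0.4% in 47 members, and 71 cells between 0.1 and 0.2% missed it.

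Depth entered this rule, since low counts of Mrc1, F13a1 and Arg1 are easier to meet in shallow cells and 1 Cx3cr1 UMI in deep ones. Median UMIs per member were 5781, 3384.5, 3662 and 5423 in OE-Vector 1 and OE-MLKL 1, 2 and 3, under those of the Mrc1-F13a1 macrophages without Arg1 (7070, 3861, 4175 and 6458; at least 2 UMIs of Mrc1 and F13a1) and of the Arg1-positive C1q macrophages (8685, 4864, 5197 and 7275). When each cell was thinned to 1000 UMIs before the rule was applied, the share of members became 19.1% in OE-Vector 1, with 3.66, 8.93 and 31.5% in OE-MLKL 1, 2 and 3 respectively. OE-MLKL 3 stayed the highest and OE-MLKL 1 was the lowest.

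Cx3cr1 itself (chromosome 9, 119901616 to 120069879, minus strand, GRCm38) varied between the libraries over all C1q macrophages, at 543 CPM in OE-Vector 1, with 67.1, 417 and 927 CPM in OE-MLKL 1, 2 and 3 respectively. After thinning to 1000 UMIs, 36.0, 6.03, 30.2 and 54.1% of C1q macrophages had a Cx3cr1 UMI, and without thinning 68.0, 17.5, 61.2 and 79.2%. Neutrophils (S100a8 and S100a9 at 5% of UMIs or more), which should lack it, had one in 1.66, 0.139, 1.09 and 4.14% of thinned cells, and keratin-positive cells in 1.48, 0.446, 0.639 and 1.88%. These shares followed the same order of libraries and were lower than those of macrophages in each. Barcodes of at most 100 UMIs, which hold mostly free RNA, had Cx3cr1 at 96.2, 20.9, 60.4 and 132 CPM, again in that order, and the part of free RNA in members with 1 Cx3cr1 UMI was not tested. The median depths before thinning were 801 to 1600 UMIs in neutrophils and 13036.5 to 26754.5 in keratin-positive cells.

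Members were a small fraction of all C1q macrophages with a Cx3cr1 UMI: 6.99% in OE-Vector 1, with 10.4, 2.89 and 11.8% in OE-MLKL 1, 2 and 3 respectively. Nor was the Cx3cr1 level particular to them. It was 712, 282, 695 and 953 CPM in members of OE-Vector 1 and OE-MLKL 1, 2 and 3, against 805, 82.8, 485 and 1116 CPM in Mrc1-F13a1 macrophages, and 507, 60.9, 401 and 877 CPM in Arg1 macrophages. The members' level was thus under that of Mrc1-F13a1 macrophages in 2 of 4 libraries although the latter were chosen without regard to Cx3cr1.

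The other markers were found in members of every library but set no sharp border. C1qa stood at 5087, 3204, 5020 and 4678 CPM in members, close to its level in both other sets. Aif1, an actin-binding protein of macrophages and microglia, was found at 1419, 245, 761 and 851 CPM in members, and did not differ from Mrc1-F13a1 macrophages (log2 fold change 0.24, adjusted p = 0.852) or Arg1 macrophages (0.40, adjusted p = 0.49) past the threshold of 0.05. Ly86, a cofactor of the Toll-like receptor family, was at 509, 199, 515 and 553 CPM, with 0.07 (adjusted p = 0.977) and 0.31 (adjusted p = 0.611) against the same sets. Adgre1 (F4/80) was measured at 120 to 276 CPM in members, Csf1r, the receptor that macrophages need to survive, at 631 to 909 CPM and Apoe at 13770 to 22160 CPM. Each was lower in members than in Mrc1-F13a1 macrophages in every library. The log2 fold changes were -0.435, -0.273 and -0.355, and none passed (adjusted p = 0.369, 0.759 and 0.581).

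Fcrls (chromosome 3, 87250758 to 87263738, minus strand), an Fc receptor-like scavenger protein known from microglia, was listed as a marker of these cells but was not highest in them. In members it was at 258, 62.3, 102 and 151 CPM in OE-Vector 1 and OE-MLKL 1, 2 and 3, and in Mrc1-F13a1 macrophages at 618, 43.6, 178 and 359 CPM. The difference was -1.04 ± 0.188 (log2 fold change ± SE, adjusted p = 0.015), with lower levels in members in every library but OE-MLKL 1. Over 12 alternatives it ran from -1.18 to -0.40, and the call held in 6 of them. Thinned to 1000 UMIs, 24.4, 10.2, 12.2 and 13.4% of members had an Fcrls UMI, against 46.9, 4.83, 15.4 and 27.0% of Mrc1-F13a1 macrophages. Against Arg1 macrophages it was -0.56 (adjusted p = 0.173), and 0.31 when only cells with 1000 to 5000 UMIs were used.

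**Figure D2:**
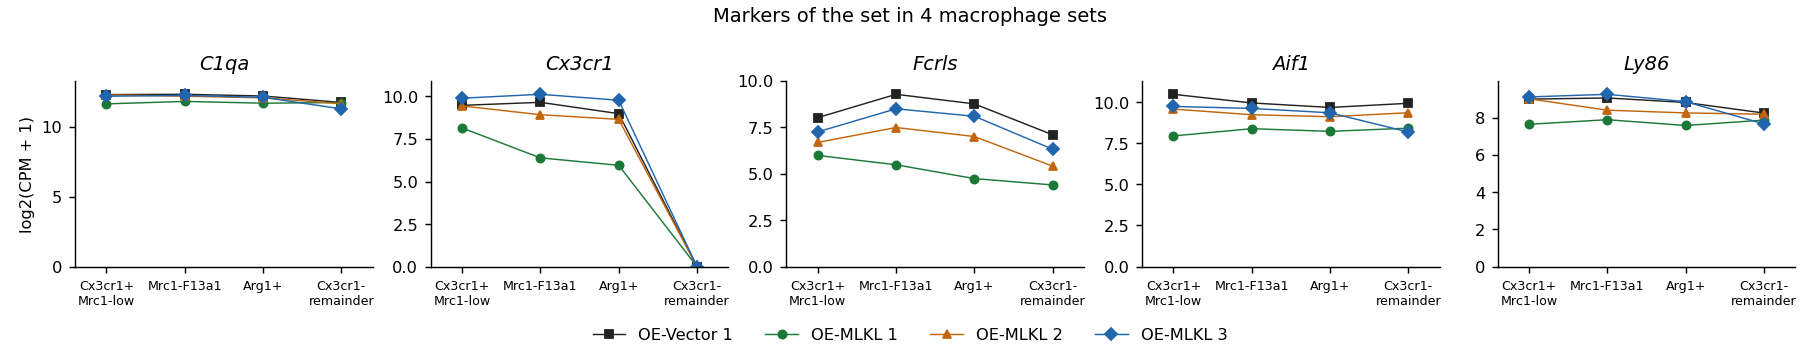
Levels of the 5 markers, as log2(CPM + 1) on the y axis, in the 4 sets of C1q macrophages on the x axis, with 1 line per library. Aif1 and Ly86 did not pass the test between members and any other set, Fcrls was highest in Mrc1-F13a1 macrophages in 3 of 4 libraries, and Cx3cr1 was 0 in the remainder by its definition.

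Fcrls, Aif1, Ly86 and Csf1r also belong to a list of 19 tissue macrophage genes shared with microglia, of which 16 could be tested. None was higher and only Fcrls was lower against Mrc1-F13a1 macrophages, with a median log2 fold change of -0.18 beside 0.001 over all genes tested. P2ry12, the ADP receptor by which microglia sense injury, was at 9.64, 4.15, 24.0 and 23.4 CPM in members and at 22.5, 37.0, 56.9 and 37.4 CPM in Arg1 macrophages (-1.06, adjusted p = 0.0227). Sall1 and Siglech, defining genes of microglia, were in no thinned member. Against Arg1 macrophages too none was higher, with a median of 0.04 (0.005 over all genes). Against the Cx3cr1-negative remainder, described later, 16 of 16 had positive values with a median of 0.47 (0.007 over all genes), and P2ry6 passed. The remainder was shallower, at medians of 749.5 to 3090 UMIs, and held more neutrophil RNA, at 290 to 1990 CPM summed over that list against 108 to 365 CPM in members, and the part of either in these values was not tested.

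To find what set the members apart outside the rule, UMIs were summed per library and set and compared within libraries by edgeR. Since the sets were cut on Mrc1, F13a1, Arg1 and Cx3cr1, a gene that varies with these from cell to cell is not independent of the cut. The comparisons share the member sums and are given side by side.

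Against Mrc1-F13a1 macrophages, 33 of 10337 genes passed an adjusted p of 0.05, and 6 were higher (0.058%) and 27 lower in members (0.261%). Of 22 listed genes of perivascular and alternatively activated macrophages 19 could be tested, and 0 were higher, 8 were lower and 11 did not pass, with a median log2 fold change of -1.54. The list is made of genes that go with Mrc1 and F13a1, on which the sets were cut, so its count is not independent of the cut. Leaving out the library OE-MLKL 2 reduced the count of calls to 4, namely Gas6, Nxpe5 and Retnla lower and Dnase1l3 higher, leaving out OE-Vector 1 gave 18, and leaving out OE-MLKL 1 gave 86. Of the 33 genes, those tested kept their sign in each of these.

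Gas6 (chromosome 8, 13465374 to 13494490, minus strand), a bridging protein that links phosphatidylserine on dying cells to the receptors AXL and MERTK, had the smallest adjusted p together with Nxpe5. It was at 50.1, 66.4, 35.9 and 27.6 CPM in members of OE-Vector 1 and OE-MLKL 1, 2 and 3, and at 207, 85.9, 145 and 108 CPM in Mrc1-F13a1 macrophages. The level was lower in members in every library and the sets did not overlap across libraries, with a log2 fold change of -1.73 ± 0.208 (adjusted p = 0.000679). In the Cx3cr1-negative remainder Gas6 was at 59.9, 40.0, 36.2 and 46.7 CPM, so its low level was not particular to members. Its receptor Mertk lay at 112, 170, 168 and 130 CPM in members.

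Pf4, a platelet-type chemokine (CXCL4) that tissue macrophages also make, was at 407, 141, 77.9 and 87.8 CPM in members, against 791, 292, 525 and 217 CPM (-1.44 ± 0.22, adjusted p = 0.00228). Stab1, a scavenger receptor of perivascular macrophages, was at 353, 183, 294 and 333 CPM against 735, 354, 625 and 592 CPM (-0.93 ± 0.138, adjusted p = 0.00211). Both were lower in members of each library, by a similar ratio for Stab1 in all 4.

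Cd163, the haemoglobin scavenger receptor, was lower in members of each library, by unequal ratios. It was at 1.93, 45.6, 12 and 0.708 CPM in members and at 26.2, 159, 116 and 19.2 CPM in Mrc1-F13a1 macrophages (-2.73 ± 0.419, adjusted p = 0.00228). Folr2, the folate receptor of resident macrophages, was lower by 1.54 on the log2 scale (log2 fold change -1.54, adjusted p = 0.0277), and the carbonyl reductase Cbr2 had -1.70 (adjusted p = 0.0351). Retnla, a secreted product of IL-4-stimulated macrophages, had 1 UMI in all members against 625 in Mrc1-F13a1 macrophages, a ratio of 102 (95% counting interval 18.2 to 4030), most of them in OE-Vector 1 (251 CPM). The list also held Selenop, which was lower. Against the Cx3cr1-negative remainder, described later, only Chil3 of its 19 tested genes passed. There 7 values were positive and 12 negative, with a median log2 fold change of -0.315.

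Outside that list, Npl, an enzyme that breaks down sialic acid, Nxpe5, the elastase-like gene Cela1 and Tns1, an adaptor of focal adhesions, were lower in members, with log2 fold changes of -2.78, -1.66, -1.30 and -1.22 and the same direction in 4 of 4 libraries. Of 14 chemokine ligands tested, 3 were lower and 0 higher: Ccl7 (-1.23), Ccl6 (-0.90) and Ccl2 (-0.68), ligands that draw monocytes. Ccl7 was at 147, 78.9, 132 and 156 CPM in members and at 470, 71.3, 415 and 384 CPM in Mrc1-F13a1 macrophages, so that it was lower in every library but OE-MLKL 1. Ctsd, the aspartic protease of lysosomes, was the only one of 18 lysosomal genes to pass (-0.71, adjusted p = 0.00228).

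Of the 6 genes that were higher, Dnase1l3 (chromosome 14, 7964533 to 7994573, minus strand) had the largest change with the same sign in 4 of 4 libraries. It encodes a secreted nuclease of macrophages and dendritic cells that digests DNA in apoptotic particles. It was at 305, 4.15, 24.0 and 70.1 CPM in members and at 41.4, 3.27, 13 and 35.1 CPM in Mrc1-F13a1 macrophages (1.83 ± 0.264, adjusted p = 0.00182). The difference was widest in OE-Vector 1, and in OE-MLKL 1 the member value was 1 UMI. Without OE-Vector 1 it was not among the genes that passed. In the Cx3cr1-negative remainder Dnase1l3 was at 100.9, 7.27, 31.1 and 37.9 CPM, above the members in OE-MLKL 1 and OE-MLKL 2.

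Spn, the sialophorin CD43 that marks non-classical monocytes, was at 25.1, 29.1, 30.0 and 65.8 CPM in members against 12.6, 13.7, 24.0 and 27.6 CPM (1.17 ± 0.23, adjusted p = 0.025). Cadm1 (chromosome 9, 47530173 to 47857637, plus strand), an adhesion molecule of the immunoglobulin family, was at 139, 129, 77.9 and 188 CPM against 99.4, 61.0, 57.4 and 122 CPM (0.71 ± 0.138, adjusted p = 0.0228). Itgax (CD11c), the integrin chain of complement receptor 4, was at 187, 0, 35.9 and 115 CPM against 79.2, 2.62, 12.4 and 58.1 CPM (1.15, adjusted p = 0.00787), with no UMI in members of OE-MLKL 1. The other 2, Phf11b (1.11) and Apol7c (2.66), were outside the naming rule and are named after their values were seen. Apol7c was higher in members of OE-Vector 1 alone.

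**Figure D3:**
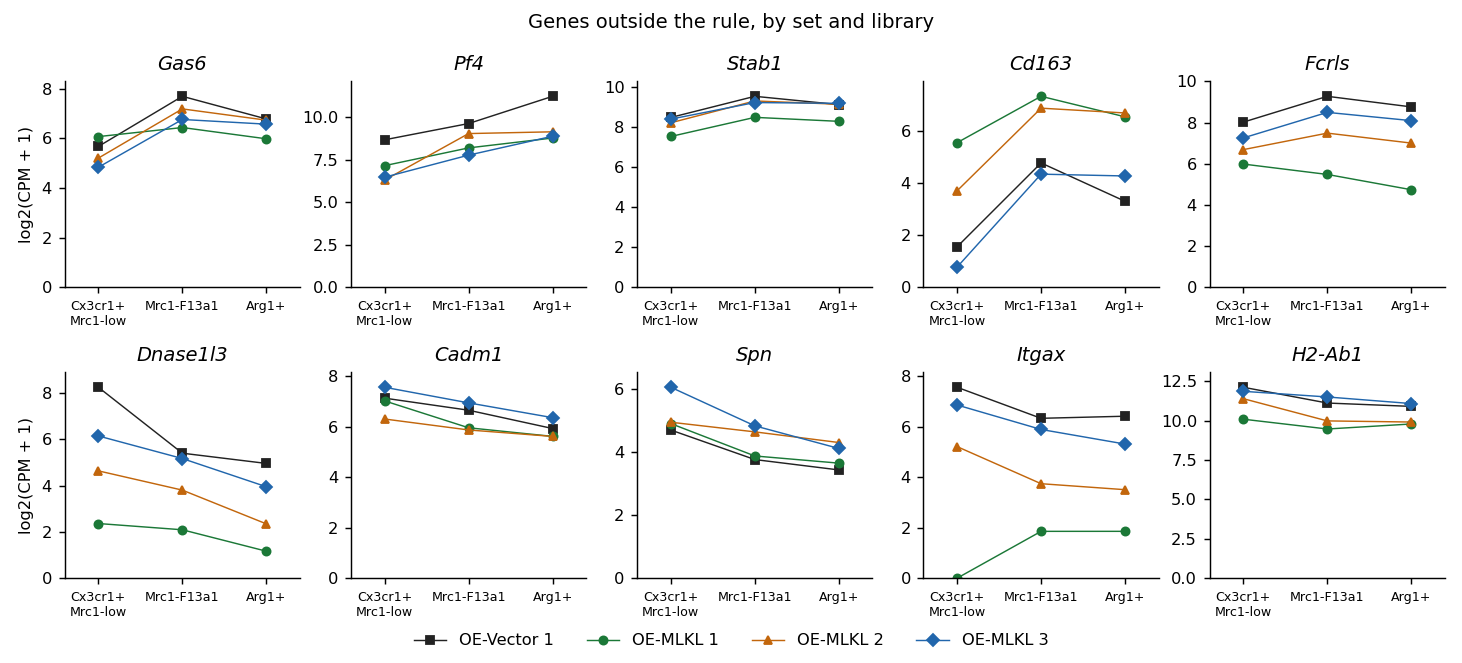
Levels of 10 genes that the rule did not use, as log2(CPM + 1) on the y axis, in members, Mrc1-F13a1 macrophages and Arg1 macrophages on the x axis, with 1 line per library. Gas6, Pf4, Stab1 and Cd163 were lower in members than in Mrc1-F13a1 macrophages in each library, and Dnase1l3, Cadm1, Spn and H2-Ab1 were higher, though H2-Ab1 did not pass the test in that comparison.

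Markers of other cells moved with these results in part. The 9 listed genes of non-classical monocytes summed to 285, 108, 198 and 277 CPM in members and to 185, 90.7, 135 and 181 CPM in Mrc1-F13a1 macrophages, and Spn was the only one of 8 tested to pass. The 8 dendritic cell genes summed to 0 to 29.7 CPM in members and 6.34 to 32.2 CPM in Mrc1-F13a1 macrophages, with Cd209a at 0 in members. The 7 fibroblast genes summed to 75.2, 1520, 168 and 345 CPM in members and to 99.4, 508, 158 and 129 CPM in Mrc1-F13a1 macrophages, with 6 of 7 positive, a median log2 fold change of 0.81 and none passing. The part of these cells in the higher genes was not tested.

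Against Arg1 macrophages the members differed more, with 212 of 10337 genes passing, 57 higher (0.551%) and 155 lower (1.5%). Leaving out 1 library gave 88 (OE-Vector 1), 270 (OE-MLKL 1), 104 (OE-MLKL 2) and 95 (OE-MLKL 3), and restricting the sums to cells with 1000 to 5000 UMIs gave 56. Of 20 hypoxia and lipid-associated genes tested, 11 were lower, 1 was higher and 8 did not pass, with a median log2 fold change of -1.06 beside 0.005 over all genes.

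Among these, Adam8, a membrane protease, was at 69.4, 37.4, 35.9 and 58.7 CPM in members and at 272, 186, 118 and 195 CPM in Arg1 macrophages (-1.81 ± 0.185, adjusted p = 1.16e-05). Bnip3, which directs mitophagy in low oxygen, was at 73.3, 54.0, 53.9 and 57.3 CPM against 212, 150, 80.9 and 132 CPM (-1.30 ± 0.177, adjusted p = 0.000301). In both cases no library of one set reached the levels of the other.

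Hilpda, a brake on lipid droplet breakdown (-2.53), and Gpnmb, a glycoprotein of lipid-laden macrophages (-2.56), had the same adjusted p of 0.000301. Lpl, the lipoprotein lipase, ran the other way and was higher in members (1.10, adjusted p = 0.0307), at 166, 4.15, 5.99 and 38.2 CPM against 55.6, 2.49, 12.1 and 22.9 CPM. That direction was not seen in OE-MLKL 2. Against Mrc1-F13a1 macrophages none of the 20 passed and the median was 0.15.

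Of the 19 tested genes of the perivascular and alternatively activated list, 8 were lower here, 0 were higher and 11 did not pass, with a median of -1.45. Pf4 had the smallest p in it (-2.32 ± 0.217, adjusted p = 3.13e-06), reaching 2401 CPM in Arg1 macrophages of OE-Vector 1 against 407 CPM in members. Gas6 was lower by 1.28 on the log2 scale (log2 fold change -1.28, adjusted p = 0.00164). Chil3, a chitinase-like lectin, was at 15.4, 95.5, 156 and 76.4 CPM in members and at 235, 1886, 1221 and 480 CPM in Arg1 macrophages (-3.43, adjusted p = 0.000273). Retnla had 1 UMI in members and 1345 in Arg1 macrophages, a ratio of 73.4 (13.1 to 2900).

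Among the named genes that were lower in members, Nos2 and Slc7a2 are linked to arginine. Nos2, the nitric oxide synthase that competes with arginase for its substrate, was at 3.86, 0, 0 and 2.12 CPM in members and at 93.0, 11.1, 9.03 and 18.9 CPM in Arg1 macrophages (-3.95, adjusted p = 0.000446). Slc7a2, an arginine transporter, was at 15.4, 8.30, 41.9 and 14.2 CPM against 159, 71.0, 79.1 and 232 CPM (-3.31, adjusted p = 0.000329). Arg1 itself defines this set and is no result.

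The coagulation factor genes F7 (-3.83) and F10 (-2.71), the acute-phase protein Saa3 (-3.99), the eosinophil attractant Ccl24 (-3.62), the serine protease Prtn3 (-3.55) and the cell cycle regulator Rgcc (-3.09) were also lower in members of each library. F7, F10 and Rgcc were at 2.51 to 7.85, 3.55 to 22.45 and 2.51 to 5.67 CPM in Mrc1-F13a1 macrophages. In Arg1 macrophages they were at 26.5 to 45.6, 57.6 to 82.3 and 14.6 to 36.5 CPM. Of 14 chemokine ligands 5 were lower and 0 higher, led by Ccl6 (-1.58, adjusted p = 2.72e-06), which was at 397, 224, 288 and 171 CPM in members and at 1025, 747, 694 and 597 CPM in Arg1 macrophages. Ctsd was lower with the same adjusted p (-1.18). Fn1, fibronectin, which also marks classical monocytes, had -1.22 (adjusted p = 0.00172), and Itgam, the integrin chain CD11b, had -0.72 (adjusted p = 0.0473). The 8 classical monocyte genes summed to 887 to 1200 CPM in members and 1860 to 3100 CPM in Arg1 macrophages. That sum includes Chil3 and Fn1, at 1886 and 887 CPM in Arg1 macrophages of OE-MLKL 1, and only these 2 passed. Of the 8 genes, 3 had positive and 5 negative values. Ccr2 was at 214, 70.6, 204 and 135 CPM in members against 135.6, 31.5, 105.5 and 93.6 CPM, and did not pass (0.744, adjusted p = 0.151).

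Dnase1l3 led the 57 genes that were higher, with 30.2, 1.25, 4.09 and 14.5 CPM in Arg1 macrophages (2.87 ± 0.256, adjusted p = 2.72e-06). Klrb1b, an inhibitory lectin receptor best known from natural killer cells, was at 17.4, 16.6, 24.0 and 60.9 CPM in members and 9.66, 3.24, 3.35 and 16.3 CPM in Arg1 macrophages (1.73, adjusted p = 0.000613). Ighm, the constant region of IgM, was at 75.2, 12.4, 24.0 and 152 CPM against 23.4, 3.11, 7.26 and 49.6 CPM (1.67, adjusted p = 3.81e-05). Of the 6 B cell genes, Ighm was the only one to pass, and it was at 91.8, 7.19, 14.7 and 112 CPM in Mrc1-F13a1 macrophages.

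Cd72, a co-receptor with a C-type lectin domain, was at 289, 33.2, 138 and 532 CPM in members and at 194, 12.1, 43.8 and 209 CPM in Arg1 macrophages (1.11 ± 0.189, adjusted p = 0.00232). After thinning, 30.5, 6.12, 17.1 and 37.2% of members had a Cd72 UMI. Spn (1.59), Sh2d1b1, an adaptor of SLAM receptors (1.34), and the tetraspanin Tspan13 (1.30) were higher in 4 of 4 libraries. So were Tlr12, a sensor of parasite profilin (1.28), Cadm1 (1.16) and Siglece, an inhibitory sialic acid receptor (1.01). Their adjusted p lay between 6.3e-05 and 0.02. Tspan13 was at 37.8, 27.3, 31.1 and 49.6 CPM in the Cx3cr1-negative remainder, against 63.6, 8.30, 18.0 and 30.4 CPM in members. Siglece was at 18.9, 34.5, 72.5 and 114 CPM there and at 25.1, 29.1, 41.9 and 137 CPM in members. Sh2d1b1 and Cadm1 were higher in members than in the remainder in each library. Members of OE-MLKL 1 and 2 held 2 and 3 Tspan13 UMIs and 2 and 4 Tlr12 UMIs. Itgax (1.35, adjusted p = 0.000329) and Treml4 (2.30, adjusted p = 0.00174), a receptor of splenic macrophages and non-classical monocytes, also passed. Treml4 had 18, 1, 1 and 17 UMIs in members. Of 8 tested genes of the non-classical monocyte list, Spn and Treml4 alone passed, with 5 positive and 3 negative values and a median of 0.333. Clec9a, a receptor of cross-presenting dendritic cells, was 1 of 3 dendritic cell genes tested and passed too (1.73, adjusted p = 0.0437), with 7, 0, 0 and 15 UMIs in members, in 5 of 9 alternatives. The dendritic cell genes summed to 23.1, 0, 5.99 and 29.7 CPM in members and 14.0, 5.48, 7.17 and 18.3 CPM in Arg1 macrophages, and their part in the higher genes was not tested.

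**Figure D4:**
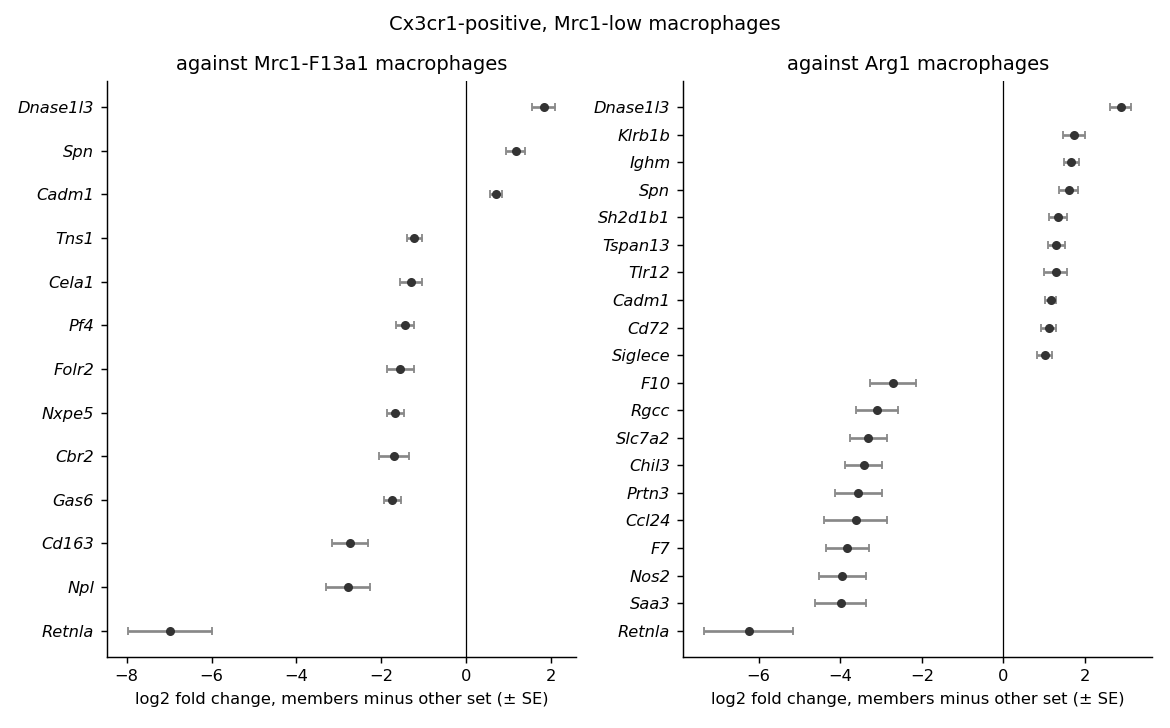
Log2 fold changes of members minus Mrc1-F13a1 macrophages (left) and minus Arg1 macrophages (right), with standard errors as bars, for the genes taken by the naming rule from edgeR's fit of 4 libraries. Dnase1l3 was highest in both panels (1.83 and 2.87). The fitted change of Retnla rests on 1 UMI in members and depends on the fit's prior count.

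MHC class II genes, which present peptides to CD4 T cells, had a median log2 fold change of 0.81 against Arg1 macrophages. Of 9 tested, 3 were higher and 0 lower, beside 0.551% of all genes that were higher, and 6 did not pass, among them Cd74 (0.81, adjusted p = 0.135), H2-Aa (0.79, adjusted p = 0.193) and H2-DMb2 (-0.19, adjusted p = 0.961). H2-Ab1 was at 4458, 1092, 2696 and 3728 CPM in members of OE-Vector 1 and OE-MLKL 1, 2 and 3, and at 1920, 884, 964 and 2174 CPM in Arg1 macrophages (0.94 ± 0.238, adjusted p = 0.0437). H2-Eb1 (1.003, adjusted p = 0.0377) and Ciita, the transactivator that switches the whole group on (0.95, adjusted p = 0.012), also passed. These 3 calls each held in 8 of 12 alternatives. They were lost in cells with 1000 to 5000 UMIs, without a library term and without OE-Vector 1 or OE-MLKL 2. Against Mrc1-F13a1 macrophages the median was 0.58 with 8 of 9 positive, but none passed (H2-Ab1 0.86, adjusted p = 0.185). Both H2-Ab1 and H2-Eb1 passed in that comparison when OE-MLKL 3 was left out, when Cx3cr1 was required at 2 UMIs or more, and with all genes of at least 1 UMI. Against the Cx3cr1-negative remainder the median was 0.376 with 8 of 9 positive, and none passed. H2-Ab1 was at 3241, 1639, 1910 and 1573 CPM in the remainder, above the members in OE-MLKL 1. Its level was thus not particular to members in that library.

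Within the members, class II varied from cell to cell over a wide range. These genes together made a median of 2.21% of the UMIs of a member in OE-Vector 1, with a 10th to 90th percentile of 0.209 to 5.09%. The median was 0.351% (0.0116 to 2.45%) in OE-MLKL 1, 1.13% (0.0405 to 3.25%) in OE-MLKL 2 and 2.3% (0.393 to 4.07%) in OE-MLKL 3. Mrc1-F13a1 macrophages had medians of 0.794, 0.126, 0.164 and 1.99%, each lower than in the members of the same library, with cells at either end of the range in both sets. Arg1 macrophages had medians of 0.608, 0.343, 0.272 and 1.41%, close to the members in OE-MLKL 1. C1q made a median of 1.05 to 1.22% of UMIs in members of the 4 libraries.

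The Cx3cr1-negative remainder met every criterion but the last, and 70 of 10337 genes passed against it, 17 higher (0.164%) and 53 lower in members (0.513%). The remainder was shallower in each library (medians of 918.5, 3090, 1443 and 749.5 UMIs), and leaving out OE-Vector 1, OE-MLKL 2 or OE-MLKL 3 reduced the calls to 2, 4 and 5, whereas leaving out OE-MLKL 1 raised them to 531. Neutrophil genes were lower in members, 5 of 7 tested: G0s2 (-2.42), Csf3r, the receptor of G-CSF (-1.80), the decoy receptor Il1r2 (-2.25), Acod1, which makes itaconate (-1.80), and Retnlg. The 8 listed neutrophil genes summed to 187, 108, 156 and 365 CPM in members and to 1120, 290, 487 and 1990 CPM in the remainder, and their part in the difference was not tested.

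Ltb (-3.06), Chil3 (-2.79), the Schlafen gene Slfn4 (-2.68), Pglyrp1, a peptidoglycan-binding granule protein (-2.64), and Upp1, uridine phosphorylase (-2.40), were also lower than in the remainder, and so was Il1b, the inflammasome cytokine, at 819, 191, 359 and 920 CPM in members against 2301, 486, 1258 and 3266 CPM (-1.54, adjusted p = 0.00506). Higher in members were the integrin chains Itga9 (1.47) and Itga6 (1.20), Cd72 (1.41), the fatty acid synthase Fasn (1.32), Cadm1 (1.16), P2ry6, a UDP receptor that triggers phagocytosis (0.97), and the tetraspanin Cd81 (0.68). Cadm1 was at 139, 129, 77.9 and 188 CPM in members and at 50.4, 60.0, 56.9 and 67.1 CPM in the remainder, without overlap (adjusted p = 0.00583). Pglyrp1 also belongs to the non-classical monocyte list. It alone of 8 tested genes there passed against the remainder, with 4 positive and 4 negative values.

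Of the CX3CR1 pathway, the ligand Cx3cl1 was too low to test. Among 11 tested genes of ligands, shedding enzymes and receptors, none passed against Mrc1-F13a1 macrophages, Ccr1 was lower against Arg1 macrophages (-0.65, adjusted p = 0.0149) and Csf1 was lower against the remainder (-1.96, adjusted p = 0.0446). Ccr2, the receptor by which classical monocytes leave the marrow, was at 214, 70.6, 204 and 135 CPM in members and at 112, 35.7, 69.4 and 76.5 CPM in Mrc1-F13a1 macrophages (1.05, adjusted p = 0.0922). Members had the higher value in each library, but the difference did not pass by edgeR. It passed by DESeq2, with all genes of at least 1 UMI and without OE-MLKL 1, and was 0.49 in cells with 1000 to 5000 UMIs. After thinning, 14.6, 6.12, 12.2 and 11.3% of members had a Ccr2 UMI. In the Cx3cr1-negative remainder Ccr2 was at 242.8, 94.5, 419 and 75.9 CPM, above the members in every library but OE-MLKL 3. The difference from the remainder did not pass (log2 fold change -0.337, adjusted p = 0.738), so the Ccr2 level was not particular to members.

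Several lists gave no call against Mrc1-F13a1 macrophages. Type I interferon-induced genes had a median log2 fold change of 0.15 over 15 tested, MHC class I presentation genes 0.03 over 13, inflammatory and M1-type genes 0.10 over 12, core macrophage genes -0.21 over 14, the 5 necroptosis genes 0.06 and immediate early genes of tissue dissociation -0.27 over 12. Of the efferocytosis and phagocytosis checkpoint genes, Gas6 alone of 13 passed, and of the extracellular trap genes 0 of 4. Against Arg1 macrophages interferon, class I and necroptosis genes again gave no call, while Mmp12 (-2.61) of the trap list was lower. Of 12 complement and Fc receptor genes, Itgax alone passed against Mrc1-F13a1 macrophages, and Itgax and Cfp, properdin (-0.85), against Arg1 macrophages. In members, T cell genes summed to 12 to 41.5 CPM over the libraries, natural killer cell genes to 5.99 to 41.5 CPM and endothelial genes to 0 to 42.4 CPM. The 8 cycling genes had a median of 0.17 against Mrc1-F13a1 macrophages, with none passing.

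Between labels, the members of the 3 libraries labelled OE-MLKL were compared with those of OE-Vector 1. Of 6808 genes tested, 7 passed, 1 higher (0.0147%) and 6 lower (0.0881%) in the libraries labelled OE-MLKL, and 368 had an unadjusted p under 0.05. Label and tumour cannot be told apart on the OE-Vector side. Without OE-MLKL 1, 2 or 3 the calls were 28, 40 and 180, and each held the 7, while DESeq2 and limma-voom each called 2.

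Nr1h3, the liver X receptor alpha that senses oxysterols and controls cholesterol efflux, had the smallest p. It was at 227.5 CPM in members of OE-Vector 1 and at 8.30, 35.9 and 26.9 CPM in OE-MLKL 1, 2 and 3 (-3.35 ± 0.5, adjusted p = 0.0112). Cd5l (AIM), a secreted protein of tissue macrophages, was at 71.4 CPM against 0, 0 and 2.83 CPM (-5.11, adjusted p = 0.0249). Lpl was at 166 CPM against 4.15, 5.99 and 38.2 CPM and did not pass (-2.94, adjusted p = 0.0518).

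Dnase1l3 was at 305 CPM in OE-Vector 1 against 4.15, 24.0 and 70.1 CPM (-2.995, adjusted p = 0.0465), and Folr2 at 88.7 CPM against 12.4, 12 and 7.08 CPM (-3.40, adjusted p = 0.0249). The interferon-inducible Ifi27l2a was at 501 CPM against 33.2, 102 and 73.6 CPM (-2.97, adjusted p = 0.0165), and the guanylate-binding protein gene Gbp2b at 104 CPM against 0, 12 and 17.0 CPM (-3.17, adjusted p = 0.0465). OE-Vector 1 was above all other libraries for each of these. Apol7c had 30 UMIs in members of OE-Vector 1 and 0 in the other 3, at least 35.1-fold lower against a floor of 3 counts over the group, and did not pass (adjusted p = 0.0739).

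This order of libraries was not particular to members. In Mrc1-F13a1 macrophages too, OE-Vector 1 was above all other libraries for Nr1h3, Ifi27l2a, Folr2, Cd5l, Dnase1l3 and Gbp2b. Nr1h3 was there at 62.1 CPM in OE-Vector 1 against 8.06, 15.4 and 25.5 CPM, and Ifi27l2a at 423 CPM against 46.9, 74.1 and 65.4 CPM. The same held in Arg1 macrophages except for Gbp2b, at 8.404 CPM in OE-Vector 1 and 9.175 CPM in OE-MLKL 3. In the Cx3cr1-negative remainder it held except for Cd5l, at 3.153 CPM in OE-Vector 1 and 46.59 CPM in OE-MLKL 2. All 12 tested interferon-induced genes and 12 of 13 class I genes had negative log2 fold changes in members, with medians of -1.35 and -0.78 beside 0.07 over all genes, and so did 7 of 7 class II genes (median -0.77), but none passed. Isg15 (-2.13, adjusted p = 0.0947) and Irf7 (-2.57, adjusted p = 0.0904) came nearest.

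Meis2, a homeobox gene, was the only gene that was higher, with 0 UMIs in members of OE-Vector 1 and 126 in the other libraries (141, 47.9 and 59.5 CPM), at least 12-fold against a floor of 3 counts over the group (adjusted p = 0.0249). In Mrc1-F13a1 macrophages it was at 23.7 CPM in OE-Vector 1, with 69.5, 89.8 and 40.7 CPM in OE-MLKL 1, 2 and 3 respectively. The mucosal products Fcgbp, Tff3 and Zg16 followed at 3.86, 9.64 and 7.71 CPM in OE-Vector 1 and 47.9 to 162 CPM in the others, with adjusted p of 0.0739, 0.0947 and 0.12, so that none passed. Bmp4, Nfib, Ccn1 and Chil3 also missed the threshold (adjusted p from 0.111 to 0.228).

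Lists of cells other than macrophages differed in direction between labels in the members. The 7 fibroblast genes summed to 75.2 CPM in OE-Vector 1, as against 1520, 168 and 345 CPM in OE-MLKL 1, 2 and 3, with all 6 tested above 0 (median log2 fold change 3.01) and none passing. The 8 cancer and epithelial genes summed to 112 CPM against 340, 365 and 197 CPM. Of these 8, 3 were tested, with 2 values above 0 and 1 under it, and none passed. The endothelial genes ran the other way, at 42.4 CPM against 0, 0 and 34.0 CPM. Sums of neutrophil, T cell, natural killer cell and B cell genes in OE-Vector 1 lay within the range of the other libraries. Median UMIs per cell of the fibroblast list were 0 in every library, and that of the epithelial list was 0, 0, 1 and 1. Immediate early genes of tissue dissociation had 10 of 11 positive values between labels, with a median of 0.81 beside 0.07 over all genes and none passing. The part of RNA from these cells, and of dissociation, in the differences was not tested.

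**Figure D5:**
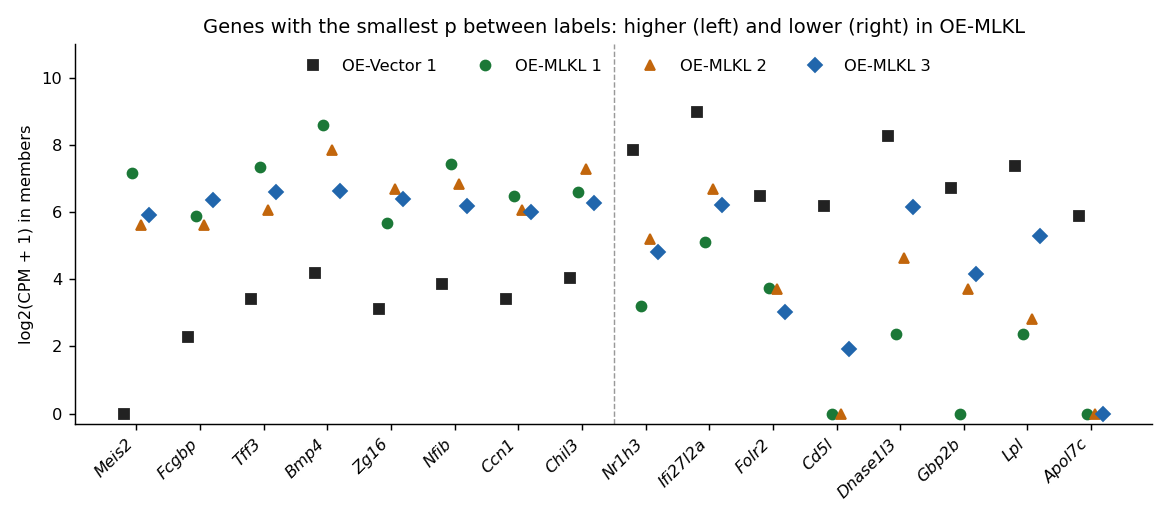
Levels in members, as log2(CPM + 1) on the y axis, of the genes with the smallest p between labels, 8 that were higher (left of the dashed line) and 8 that were lower (right) in the libraries labelled OE-MLKL, with 1 point per library. Of these, Meis2 on the left and Nr1h3, Ifi27l2a, Folr2, Cd5l, Dnase1l3 and Gbp2b on the right passed an adjusted p of 0.05.

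Whether the difference between members and Mrc1-F13a1 macrophages itself differed by label was tested with an interaction term. By edgeR, 0 of 9653 genes passed (smallest adjusted p 0.152), and 451 had an unadjusted p under 0.05. Leaving out OE-MLKL 1, 2 or 3 gave 15, 9 and 1 genes.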

How the data were processed

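Single-cell RNA libraries (10x Genomics) of 6 tumours were labelled OE-Vector 1 to 3 and OE-MLKL 1 to 3, and groups followed these labels. The deposited matrices hold the raw UMI count of each gene in each barcode, for all barcodes and each library apart. The authors made these counts with Cell Ranger against mm10. The submitters' processing notes name version 2.1.1 and the matrix headers 7.1.0, and the study's methods name a version different from both. OE-Vector 2 and 3 were not analysed here. The study's stated limits on genes and mitochondrial UMIs left 17416 to 27961 barcodes per library, before the limit of 500 UMIs used here.

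Members and gene lists were chosen with earlier results of these data known. UMIs were summed per library and set and compared by edgeR 4.0.16 (R 4.3.3, TMM scaling, quasi-likelihood test, Benjamini-Hochberg adjustment over all genes tested), with library as a term between sets and label alone between labels, where 2 residual degrees of freedom remain. The 12 rule genes and mitochondrial genes were left out of the tests, and log2 fold changes of the fit include a prior count. The 4 sets entered a joint fit and shared its estimate of the spread. Low genes were left out by edgeR's filterByExpr, and each SE was derived from the fold change and its F statistic. Scrublet scores (scanpy 1.11.5) marked doublets at 0.8% of cells per 1000 cells. Thinning drew 1000 UMIs per cell and left out shallower cells. Exact binomial and counting intervals are at 95% and cover counting error only. Of 32285 gene IDs, 32235 matched the GRCm38 annotation (GENCODE) that gave positions. Several named genes share their span with other genes, among them Cx3cr1, Gas6, Cadm1, Cd72, Folr2, Itga6, Nr1h3 and Nfib.

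Named genes were the 10 largest changes per direction (5 against the remainder) among genes with adjusted p under 0.05, the same sign in 4 libraries and a mean of 20 CPM in the higher set, the 8 smallest p per direction between labels, the markers, and up to 4 genes per list. The 16 function lists and 11 lists of other cells are reported by counts and medians. Alternatives were DESeq2 1.42.0, limma 3.58.1 (voom), library size scaling, no expression filter, depth-restricted cells, other gates, doublets or shared barcodes removed, no library term, and each library left out. The tests were first tried on simulated counts.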

Additional observations from a re-analysis of the deposited data

How the results depend on the processing

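The members were few (45 and 50 in OE-MLKL 2 and 1), so the depth of their sums limits low genes, and only 1 library labelled OE-Vector was used. The difference in the members' share between labels ran from -2.95 to 0.848 points with 1 of the OE-MLKL libraries omitted (the direction turned to 0.822 without OE-MLKL 1 and 0.848 without OE-MLKL 2), and from -4.44 to -0.394 under the other alternatives. The share of all cells, added after seeing the data, differed by 0.102 points, by -0.333 to 0.338 with 1 library omitted (negative without OE-MLKL 3), by -0.186 when cells were thinned to 1000 UMIs, and by 0.0489 to 0.371 under the other alternatives. No paired analysis was possible because only the number 1 is shared by libraries of both labels among those used.

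Against Mrc1-F13a1 macrophages, Arg1 macrophages and the remainder, the 33, 212 and 70 calls became 67, 212 and 160 by DESeq2, 194, 543 and 377 with all genes of at least 1 UMI, 33, 56 and 24 in cells with 1000 to 5000 UMIs, 51, 202 and 205 with Cx3cr1 at 2 UMIs or more, 55, 258 and 153 without doublets, and 42, 208 and 75 with library size scaling. Without a library term 0, 0 and 0 genes passed by edgeR (237, 375 and 624 at an unadjusted p under 0.05). Leaving out 1 library gave 4 to 86, 88 to 270 and 2 to 531 calls. Of the 33, DESeq2 shared 15 and library size scaling 33. The share of lower genes among the calls against Mrc1-F13a1 macrophages was 81.8%, but 44.8% by DESeq2, 66.7% with Cx3cr1 at 2 UMIs or more, 61.8% without doublets and 61.6% without OE-MLKL 1. Omitting OE-MLKL 3 left 26 calls, split into 13 and 13. The cause was not tested.

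Between labels, the 7 calls became 2 by DESeq2, 2 by limma-voom, 5 with library size scaling, 45 with all genes of at least 1 UMI, 4 in cells with 1000 to 5000 UMIs, 9 with Cx3cr1 at 2 UMIs or more, 20 without doublets, 22 without shared barcodes and 28 to 180 with 1 library left out. Library size scaling moved the median log2 fold change from 0.07 to 0.17. The interaction gave 0 genes with both scalings and 1 to 15 with 1 library left out. Of 1425 values of named genes under these alternatives, 1423 kept their direction, 277 lost the call and 97 gained one. The 2 that reversed were Ly86 against Mrc1-F13a1 macrophages (-0.09 without OE-MLKL 2, from -0.09 to 0.13 with 1 library left out) and Fcrls against Arg1 macrophages (0.31 in cells with 1000 to 5000 UMIs).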
